A study of Mus musculus with 24 samples.

Results

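The genes described are App, Aplp1, Aplp2, Psen2, Bace1, Mapt, Grn and Pink1, 8 genes that are known for their part in Alzheimer's disease, frontotemporal dementia or Parkinson's disease. They were taken by symbol from a count table of 33000 mouse genes, and each symbol matched 1 row. No synuclein gene is among them. The libraries were made with 3'Pool-seq, which captures mRNA by its poly(A) tail, tags each sample with an index during reverse transcription and sequences fragments near the 3' end of the transcript. Frontal cortex was taken from 3 WT mice (WT1 to WT3) and 3 homozygous GFAP-IL6 mice (HOM1 to HOM3), all C57BL/6 and 3 months old. In GFAP-IL6 mice a transgene under the Gfap promoter makes Il6, an inflammatory cytokine, in astrocytes. Tagmentation, the step that fragments the cDNA, was run with 2 ng or 1 ng, once in set A and once in set B for either amount, so that 4 libraries stand for 1 mouse. No label tells what makes a library set A or set B.

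The App protein is cut by β-secretase, the product of Bace1, and then by γ-secretase, whose catalytic subunit is a presenilin such as Psen2, and amyloid-β is the fragment released. Aplp1 and Aplp2 are paralogues of App that are cut by the same enzymes but hold no amyloid-β sequence. Mapt encodes tau, the microtubule-binding protein of neurofibrillary tangles. Grn encodes progranulin, a secreted lysosomal glycoprotein that microglia and neurons make and whose loss causes frontotemporal dementia. Pink1 encodes a mitochondrial kinase that marks damaged mitochondria for removal, and its loss causes early-onset Parkinson's disease.

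Because 3'Pool-seq reads fall near 3' ends, annotated transcript ends are shown here. The table holds no read positions, and the annotation gives Aplp1 1 coding 3' end and the other genes between 2 and 7, so the end printed need not be the one counted. The 30 bases before the end of 1 protein-coding transcript of each gene are shown 5' to 3' (GENCODE vM21, mm10), with the poly(A) signal hexamer AATAAA or ATTAAA nearest the end in capitals. All of them lie in the last exon, in the 3' UTR.
App: tacataaataaattaAATAAAataactcca
Aplp1: atcccAATAAAgtcctctttcccacccggc
Aplp2: tacatcAATAAAcactttaacgtcccctga
Psen2: gataccAATAAAcagatgctcctgctggaa
Bace1: gaggattaacacagtaaaatgttcaatgaa
Mapt: tttggaaataaagttattactctgAATAAA
Grn: tgctccAATAAAgtttgtacactttctgaa
Pink1: gatgcgagcATTAAAgacagtctccatgcc
AATAAA stood in 6 of the 8 ends. ATTAAA stood in that of Pink1 and also in that of App, where it overlaps the AATAAA in capitals. Bace1 had neither in these 30 bases. In Mapt the hexamer in capitals is at the very end and another copy lies upstream, so it need not be the signal used. Searched on the sense strand in the same window, AATAAA was present in 52.47% of 20335 protein-coding transcripts, ATTAAA in 13.75%, and at least 1 of them in 64.5%.

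The ends of App (chr16:84954443-84954472), Aplp1 (chr7:30434982-30435011), Aplp2 (chr9:31149557-31149586), Psen2 (chr1:180227004-180227033) and Pink1 (chr4:138313412-138313441) are on the minus strand. Those of Bace1 (chr9:45864370-45864399), Mapt (chr11:104332061-104332090) and Grn (chr11:102436780-102436809) are on the plus strand. The 3' UTR of these transcripts measured from 311 nt in Aplp1 and 337 nt in Grn to 3903 nt in Mapt and 4104 nt in Bace1. None of the last 500 nt of the other 7 genes was shared with another annotated gene, in windows of 50 bases. All 451 such windows of Bace1 lie within exons of Rnf214 on the opposite strand. The strand setting of the counting is not given in the sources used here, so the counts of Bace1 and Rnf214 are uncertain.

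App, Aplp1 and Aplp2 belong to 1 family, and their last 90 coding bases, all in the last exon, show how far their sequences differ there. The 3' UTR that follows measured 888 nt in App, 311 nt in Aplp1 and 1314 nt in Aplp2, so counted reads need not reach these bases. The codons of the shared NPTY motif, a docking site for adaptor proteins in the cytoplasmic tail, are in capitals.
App: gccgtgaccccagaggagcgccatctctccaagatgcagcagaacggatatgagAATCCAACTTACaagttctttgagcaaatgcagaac
Aplp1: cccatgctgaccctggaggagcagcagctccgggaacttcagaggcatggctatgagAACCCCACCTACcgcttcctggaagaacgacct
Aplp2: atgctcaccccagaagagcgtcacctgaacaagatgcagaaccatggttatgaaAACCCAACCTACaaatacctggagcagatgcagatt
Over these bases App and Aplp2 were identical at 71.11% of the aligned positions, Aplp1 and Aplp2 at 62.37%, and App and Aplp1 at 58.51%. The stretches lie on the minus strand at chr16:84955334-84955423 (App), chr7:30435296-30435385 (Aplp1) and chr9:31150874-31150963 (Aplp2).

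Libraries held between 1524165 and 12256374 counts, and the 4 libraries of a mouse together between 7852743 and 37582644. Levels are given as CPM, the counts of a gene per 1000000 counts of the TMM-scaled library total, and are compared within a gene only. Gfap, the astrocyte filament gene, was at 20.4, 23.6 and 15.9 CPM in the WT mice and at 80.5, 102.3 and 146.4 CPM in the GFAP-IL6 mice. Il6 was at 0.261, 0.166 and 0 CPM in WT and at 3.15, 1.59 and 4.23 CPM in GFAP-IL6, so both genes separated the genotypes as labelled. Neuron markers (10 genes, none at 0) summed to between 7950 and 8646 CPM in WT and between 7499 and 8305 CPM in GFAP-IL6. WT3 stood apart in its choroid plexus markers, which summed to 4051 CPM, against 78.8 to 748.8 CPM in the other 5 mice. In bulk tissue, fewer cells of a type and less RNA per cell cannot be told apart.

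Between genotypes, progranulin mRNA showed the largest difference of the 8 genes, at 1.51 times the WT level in the summed libraries, and the log2 fold changes of the other 7 lay between -0.13 and 0.07. A gene was called at a Benjamini-Hochberg adjusted p under 0.05 over all 14621 genes tested, by edgeR's quasi-likelihood test on 3 mice per genotype. All 8 genes passed the filter on low counts, and 0 of 8 were called. Of all genes tested, 1.74% were called higher in GFAP-IL6 and 0.0547% lower. No member of the 8 reached an absolute log2 fold change of 1, a second threshold used in the study. The 2 groups of mice overlapped for each of the 8 genes. Among all genes tested, 8.41% had every GFAP-IL6 mouse above every WT mouse, and 5.78% the reverse.

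**Figure D1:**
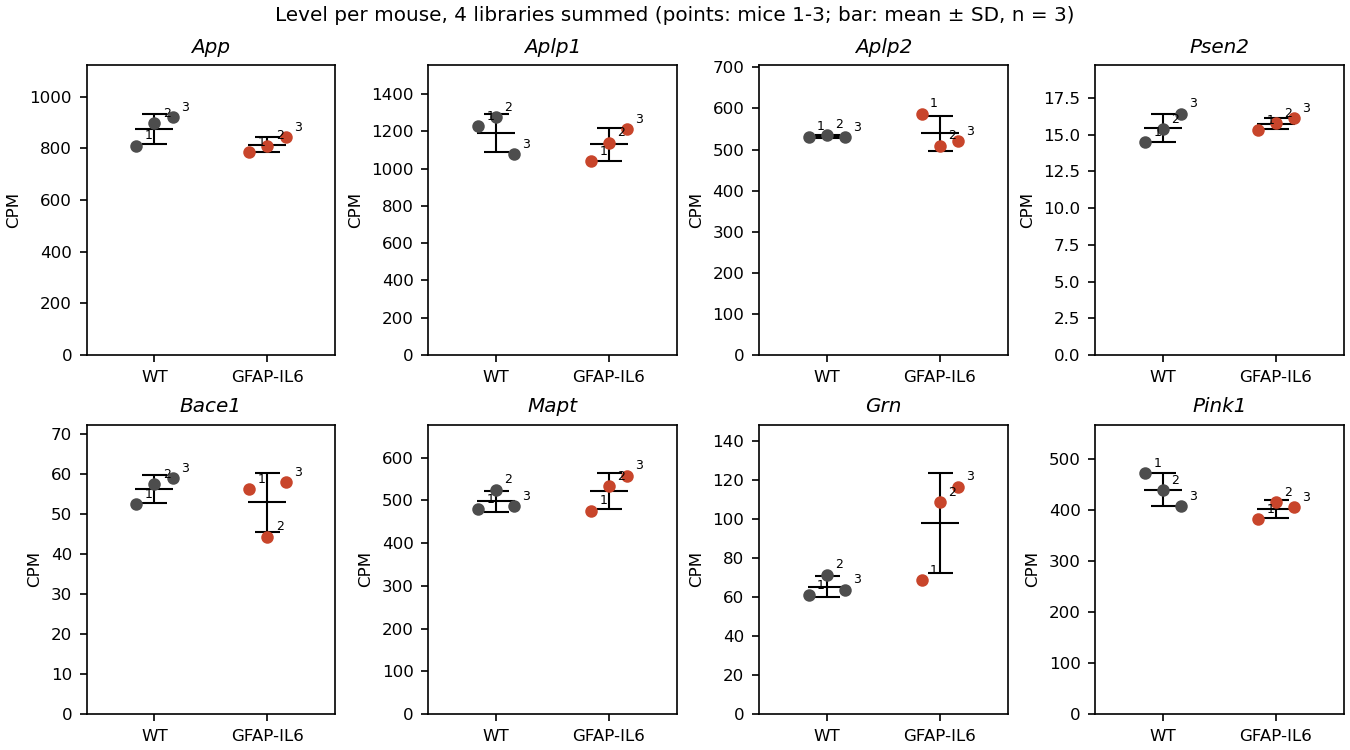
CPM of each of the 8 genes in each mouse, with the 4 libraries of a mouse summed. Points are mice 1 to 3 of the WT (grey) and GFAP-IL6 (red) groups, and the bars are mean ± SD (n = 3). Grn is the gene with a pair of GFAP-IL6 mice, at 108.7 and 116.4 CPM, well above the WT range of 60.9 to 71.4 CPM.

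App, the amyloid precursor, was at 809.8, 896.7 and 921.1 CPM in WT1, WT2 and WT3 and at 786.1, 809.7 and 844.2 CPM in HOM1, HOM2 and HOM3. HOM3 lay above WT1, HOM2 was nearly level with WT1, and HOM1 lay below every WT mouse. The log2 fold change was -0.11 (SE 0.0853, 95% confidence interval -0.29 to 0.07, adjusted p = 0.821). Aplp1, the paralogue found mainly in neurons, was at 1228, 1275 and 1079 CPM in WT and 1038, 1139 and 1214 CPM in GFAP-IL6. Its groups lay across each other, with a log2 fold change of -0.08 (SE 0.0923, adjusted p = 0.890). Aplp2, the widely expressed paralogue, was at 531.2, 536.3 and 529.4 CPM in WT and 587.7, 509.4 and 520.9 CPM in GFAP-IL6. The WT mice agreed within an SD of 3.54 CPM while HOM1 was the highest and HOM2 the lowest of all 6 mice, and the log2 fold change was 0.02 (SE 0.0855, adjusted p = 0.984).

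Of the secretase genes, Psen2 was the least counted of the 8, with between 20 and 205 counts per library. It was at 14.5, 15.4 and 16.4 CPM in WT and at 15.3, 15.8 and 16.1 CPM in GFAP-IL6. All 3 GFAP-IL6 mice lay within the WT range, and the log2 fold change was 0.04 (SE 0.121, 95% confidence interval -0.22 to 0.30, adjusted p = 0.974). Bace1 was at 52.4, 57.5 and 59.0 CPM in WT and at 56.3, 44.4 and 58.0 CPM in GFAP-IL6. HOM2 was the lowest of the 6 mice and the other GFAP-IL6 mice were within the WT range, with a log2 fold change of -0.09 (SE 0.111, 95% confidence interval -0.32 to 0.15, adjusted p = 0.905). Rnf214, which overlaps its end, was at 39.0, 42.2 and 40.6 CPM in WT and 42.5, 41.3 and 45.0 CPM in GFAP-IL6.

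Mapt, the tau gene, was at 480.2, 525.4 and 487.4 CPM in WT and at 476.4, 533.9 and 558.1 CPM in GFAP-IL6. The groups overlapped, with HOM1 lowest and HOM3 highest of all, and the log2 fold change was 0.07 (SE 0.0872, 95% confidence interval -0.12 to 0.26, adjusted p = 0.905). Pink1, the mitochondrial kinase gene, was at 472.7, 438.2 and 407.6 CPM in WT and at 381.9, 415.8 and 405.9 CPM in GFAP-IL6. HOM2 lay above WT3, and the log2 fold change was -0.13 (SE 0.0846, 95% confidence interval -0.31 to 0.05, adjusted p = 0.737). The 95% intervals of the 7 genes other than Grn, each taken alone, reached no lower than 0.798 times and no higher than 1.23 times the WT level. A p that misses the threshold does not show that the levels were equal.

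Grn was at 60.9, 71.4 and 63.7 CPM in WT1, WT2 and WT3 and at 68.8, 108.7 and 116.4 CPM in HOM1, HOM2 and HOM3. HOM2 and HOM3 lay above every WT mouse, and HOM1 lay within the WT range. The difference was 0.59 on the log2 scale (SE 0.147, 95% confidence interval 0.28 to 0.91, unadjusted p = 0.00112, adjusted p = 0.0585). An exact permutation test over the 6 mice (two-sided) gave p = 0.2, where 0.1 is the smallest that 3 against 3 mice allow. Of the fits that left out 1 mouse, the one without HOM1 called Grn. Without HOM1 the log2 fold change was 0.78 (adjusted p = 0.000549), without HOM2 0.52 (adjusted p = 0.282) and without HOM3 0.45 (adjusted p = 0.392). Without WT1 the adjusted p was 0.193, without WT2 0.0986, and without WT3, the mouse set apart by choroid plexus markers, 0.113. DESeq2 called Grn on the same counts (log2 fold change 0.58, adjusted p = 0.00900).

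In each of the 4 library sets taken alone Grn had a positive log2 fold change, and it was called with 1 ng of cDNA. With 2 ng in set A, Grn was at 56.1, 70.2 and 61.6 CPM in WT and 61.1, 89.3 and 105.1 CPM in GFAP-IL6 (log2 fold change 0.48, adjusted p = 0.178). With 2 ng in set B it was at 63.6, 74.4 and 81.1 CPM against 67.2, 130.3 and 124.3 CPM (0.62, adjusted p = 0.0624). In all 4 sets HOM1 was the lowest GFAP-IL6 mouse. With 1 ng in set A the values were 55.7, 72.3 and 56.0 CPM against 65.5, 105.0 and 117.2 CPM (log2 fold change 0.66, adjusted p = 0.0320). With 1 ng in set B they were 66.6, 70.8 and 59.9 CPM against 77.9, 111.0 and 120.2 CPM (0.67, adjusted p = 0.0135) and the groups of Grn did not overlap, as they did in the other 3 sets. The 4 sets are repeat libraries of the same 6 mice and are not independent of each other. Each call at 1 ng was lost without HOM2, without HOM3 or without WT1, and that in set B also without WT3.

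Grn was the 1 member called with 1 ng, in both sets, and 0 of 8 were called in either set made with 2 ng. Over all genes tested, the share called in either direction was 1.03% (2 ng, set A), 1.08% (2 ng, set B), 1.10% (1 ng, set A) and 1.08% (1 ng, set B). Pink1 had log2 fold changes between -0.19 and -0.08 over the 4 sets, with adjusted p between 0.794 and 0.944. Within single sets the groups of mice did not overlap for Grn (higher, 1 ng set B), for Psen2 (higher, 1 ng set A, 14.7 ± 0.456 CPM in WT and 17.7 ± 1.67 CPM in GFAP-IL6, SD, n = 3) and for Pink1 (lower in both sets with 2 ng, 346.0 ± 22.3 against 314.9 ± 3.80 CPM in set A and 558.1 ± 27.8 against 489.8 ± 38.4 CPM in set B). Of all genes tested, every GFAP-IL6 mouse lay above every WT mouse in 7.01% with 2 ng and 7.08% with 1 ng in set A, and in 6.80% with 2 ng and 6.79% with 1 ng in set B. The reverse held for 5.58% (2 ng) and 5.61% (1 ng) in set A and for 5.45% (2 ng) and 6.06% (1 ng) in set B. A test of whether the genotype difference differed between 2 ng and 1 ng called 0 of 8 members and 0.0% of 13961 genes, 538 of them at an unadjusted p under 0.05, and DESeq2 had 81 at that p. The same test between sets A and B called 0 of 8 members and 0.0% of 14167 genes, 597 of them at an unadjusted p under 0.05, and DESeq2 had 169. DESeq2 called 0 genes in both tests. For Grn the log2 fold change with 2 ng minus that with 1 ng was -0.10 (95% confidence interval -0.26 to 0.07).

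**Figure D2:**
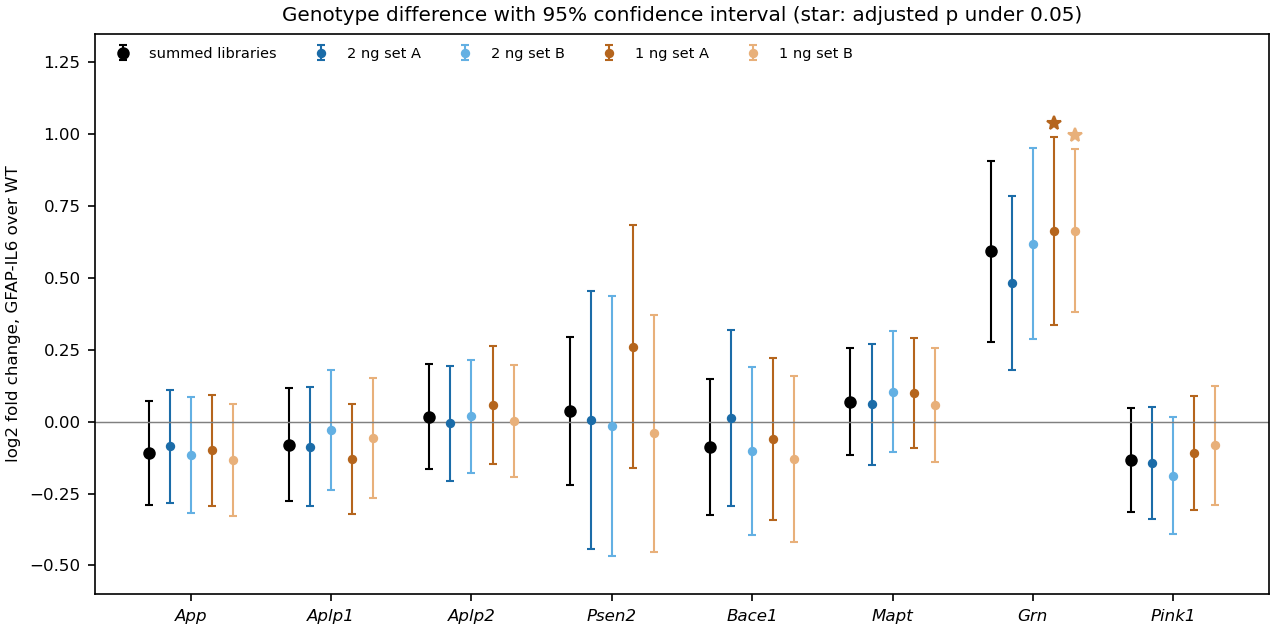
Log2 fold change of GFAP-IL6 over WT with its 95% confidence interval, for the summed libraries (black) and each library set (colours), n = 3 mice per genotype. Stars mark an adjusted p under 0.05, which Grn had in the 1 ng sets. The intervals of the other 7 genes cover 0 in every fit.

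Markers of microglia, cells known to express Grn strongly, differed between the genotypes. Of 10 microglia markers, 9 were called higher in GFAP-IL6 and P2ry12 was not (log2 fold change -0.02, adjusted p = 0.985). Their summed level was 479.7 to 537.9 CPM in WT and 790.8, 910.5 and 1050 CPM in HOM1, HOM2 and HOM3, with no marker at 0 in any mouse. HOM1, whose Grn level was within the WT range, had the lowest microglia sum of the GFAP-IL6 mice, above every WT mouse. The part of microglia in the Grn difference was not tested. Astrocyte markers had 1 of 8 called, Gfap, with sums of 3194 to 3280 CPM in WT and 3564 to 3673 CPM in GFAP-IL6. Aldoc was the largest part of each sum, at 1599 to 1757 CPM in WT and 1826 to 1992 CPM in GFAP-IL6. Of the 8 markers 6 had a positive log2 fold change, and Aldh1l1 (-0.10) and S100b (-0.09) a negative one. At an unadjusted p under 0.05 there were 2 astrocyte markers, and DESeq2 called 2, Gfap and Aqp4 (adjusted p = 0.0447). Neuron markers had 0 of 10 called and oligodendrocyte markers 0 of 7. Endothelial markers had 1 of 5 called, Flt1, higher in GFAP-IL6, with sums of 48.4 to 53.7 CPM in WT and 57.3 to 80.6 CPM in GFAP-IL6. All 5 endothelial markers had a positive log2 fold change and 4 an unadjusted p under 0.05. Blood markers had 0 of 5 called, choroid plexus markers 0 of 5, and striatal markers 0 of the 5 tested among 7 listed. These 3 lists held 1, 1 and 0 genes at an unadjusted p under 0.05. In the neuron and oligodendrocyte lists that count was 0, and DESeq2 called 0 genes in these 5 lists.

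The genes whose levels over the 6 mice were most like that of Grn, among 8975 tested genes with a mean of at least 10 CPM, were 9530059O14Rik (Pearson r = 0.995 of log2 CPM), Selplg (0.989), a selectin ligand of leukocytes, and Lime1 (0.988). For Pink1 the nearest were Wdr91 (0.995), Ndufs1 (0.988), a subunit of respiratory complex I, and Pex16 (0.988). For App they were Cpd (0.987), Sh3gl3 (0.985) and Tkt (0.981), and for Mapt Sppl2a (0.993), Car8 (0.990) and Pdxk (0.988). The nearest gene was Pcbp2 for Aplp2 (0.994), Apip for Psen2 (0.979) and N4bp1 for Bace1 (0.982). Each r was picked as the highest of all those genes over 6 points that share their genotypes and dissection, and is given as a description.

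**Figure D3:**
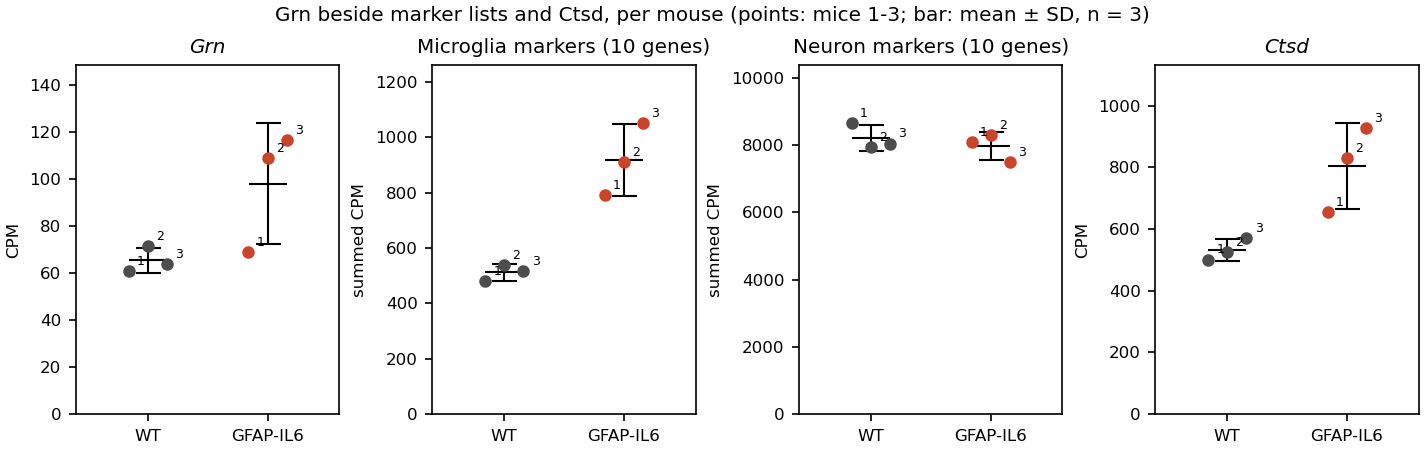
Levels per mouse of Grn (CPM), the summed 10 microglia markers and 10 neuron markers (summed CPM) and Ctsd (CPM), with the 4 libraries of a mouse summed. Points are mice 1 to 3 and bars mean ± SD (n = 3). The microglia sum of each GFAP-IL6 mouse, at 790.8 CPM or more, lies above all WT mice, while the neuron sums overlap.

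Other genes of the same pathways were examined as lists. Of 27 genes of App processing and clearance, among them the γ-secretase subunit Ncstn and the α-secretase Adam10, 0 were called and 1 had an unadjusted p under 0.05, with a median log2 fold change of 0.02 (range -0.37 to 0.34). DESeq2 called 1 of them, the lipid carrier gene Apoe (adjusted p = 0.0288; edgeR 0.129), which is named because of that call. Of 17 genes of tau kinases, phosphatases and microtubule-associated proteins 0 were called (median -0.11), and of 17 genes of Parkinson's disease 0 were called (median -0.02). Of 10 genes of frontotemporal dementia and amyotrophic lateral sclerosis 0 were called (median -0.08). At an unadjusted p under 0.05 these 3 lists held 0, 1 and 0 genes, and DESeq2 called 0 in each. The median over all 14621 genes tested was -0.01. These lists were chosen with earlier results of these data known.

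Of 9 tested genes in a list drawn up around progranulin and lysosomes, 1 was called and 3 had an unadjusted p under 0.05. Their median log2 fold change was 0.15 and the range -0.07 to 1.24. The highest value was that of a gene with low counts, at 0.652 to 2.33 CPM per mouse. DESeq2 called 2, Ctsd and Ctsl. The gene called by both was Ctsd, the lysosomal protease cathepsin D, at 500.6, 525.3 and 569.5 CPM in WT and 655.4, 830.2 and 927.7 CPM in GFAP-IL6. Every GFAP-IL6 mouse lay above every WT mouse, and the log2 fold change was 0.60 (SE 0.113, adjusted p = 0.00897). HOM1 was the lowest GFAP-IL6 mouse for Ctsd and for Grn. The fold change was 1.51 for both genes to 2 decimals, with a larger SE for Grn.

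The study varied the amount of cDNA in tagmentation, and this comparison was made within mice. With 2 ng against 1 ng, sets A and B summed, App was higher by 0.17 on the log2 scale (SE 0.0154, adjusted p = 6.58e-25) and Aplp2 by 0.23 (SE 0.0176, adjusted p = 1.35e-34). Mapt was lower, at -0.15 (SE 0.0181, adjusted p = 5.29e-15), and so was Aplp1, at -0.04 (SE 0.0142, adjusted p = 0.0316). The call of Aplp1 was lost with DESeq2 (adjusted p = 0.125), with no mouse block (0.764) and without WT2 (0.224), WT3 (0.136) or HOM3 (0.118). Psen2 (-0.14), Bace1 (-0.07), Grn (-0.02) and Pink1 (0.02) were not called. So 2 members were called higher and 2 lower, where 15.6% of all 13389 genes tested were called higher and 17.7% lower. The samples of a pool are amplified and tagmented together in 3'Pool-seq, and the labels do not say which libraries shared a pool. If those of a set did, the amount of cDNA and the reaction cannot be told apart, and these p-values describe how alike the 6 mice were within a few reactions.

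Between sets, Pink1 differed most. In the 2 ng libraries it was at 359.2, 358.6, 320.3, 313.7, 311.9 and 319.2 CPM in set A (WT1 to WT3, then HOM1 to HOM3) and at 578.4, 569.6, 526.4, 445.7, 515.8 and 508.0 CPM in set B. All 6 mice were higher in set B and no library of set B reached down to set A, a mean within-mouse ratio of 1.58 with 2 ng and 1.42 with 1 ng. With the amounts summed, set B was higher by 0.58 on the log2 scale (SE 0.0225, adjusted p = 1.11e-46). This difference between libraries of the same RNA was larger than the genotype difference of Pink1, -0.13.

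Set B was also higher for Mapt, by 0.22 (adjusted p = 6.24e-18), for Aplp1, by 0.19 (adjusted p = 1.75e-21), for Grn, by 0.18 (adjusted p = 0.00282), and for Aplp2, by 0.09 (adjusted p = 0.000187). App was lower in set B, at -0.27 (SE 0.0163, adjusted p = 5.91e-30). Bace1 (0.13, adjusted p = 0.104) and Psen2 (0.03, adjusted p = 0.901) were not called. That made 5 members higher and 1 lower, against 11.0% higher and 12.3% lower of all 13581 genes tested. The study describes repeat library preparations of the same samples, but no label ties sets A and B to them, and the pool and the set cannot be told apart.

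**Figure D4:**
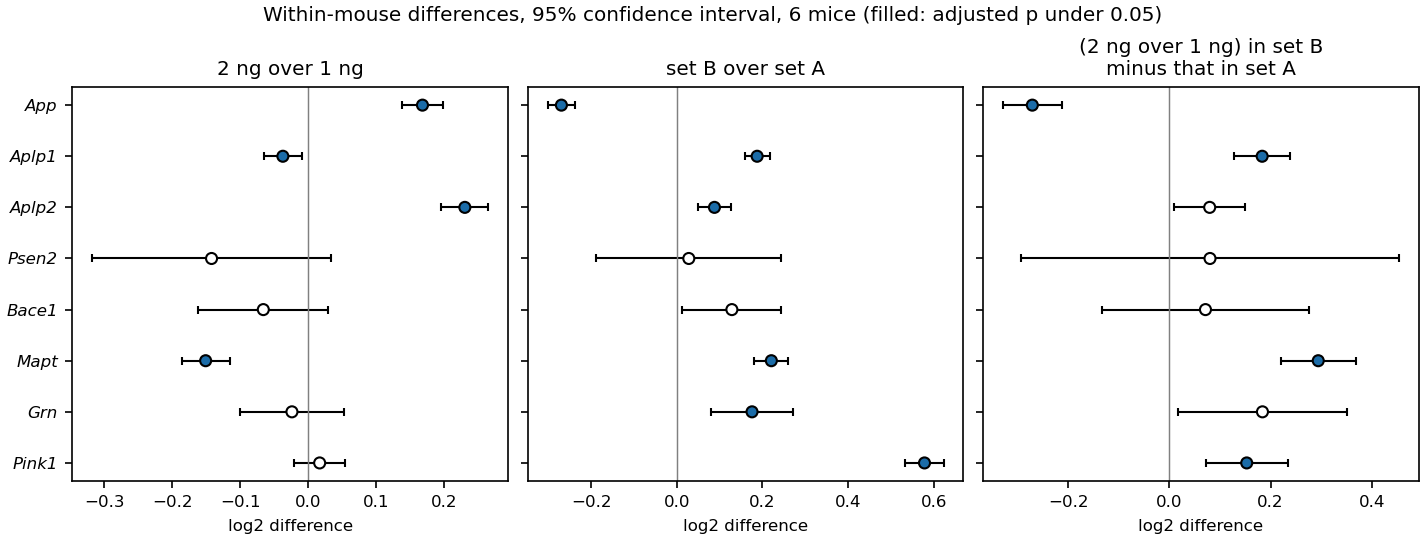
Log2 differences within the 6 mice with 95% confidence intervals, for 2 ng over 1 ng, set B over set A, and the difference of the first between the sets. Filled points have an adjusted p under 0.05. Pink1 lies at 0.58 in the comparison of sets, and App lies above 0 for the cDNA amount and below 0 for the set.

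The difference between 2 ng and 1 ng was itself unlike in the sets for 4 members (App, Mapt, Aplp1 and Pink1), where 11.4% of 12758 genes tested were called. DESeq2 called 5 members, these and Aplp2. This fit was added after the data had been seen. App with 2 ng in set A was at 998.0, 1109, 1076, 984.6, 986.6 and 1037 CPM, and with 1 ng at 797.4, 896.0, 926.1, 788.3, 809.8 and 855.8 CPM. It was 1.22 times as high with 2 ng in set A, in 6 of 6 mice, and 1.01 times as high in set B, in 4 of 6. Mapt was at 0.808 times its 1 ng level in set A, lower in 6 of 6 mice, and at 0.991 times in set B, lower in 3 of 6. Aplp1 was lower with 2 ng in 6 of 6 mice of set A (0.918 times) and higher in 6 of 6 of set B (1.05 times). Pink1 was at 0.980 times its 1 ng level in set A and 1.09 times in set B, where it was higher in 6 of 6 mice. Aplp2 was higher with 2 ng in 6 of 6 mice of both sets, at 1.15 and 1.21 times.

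**Figure D5:**
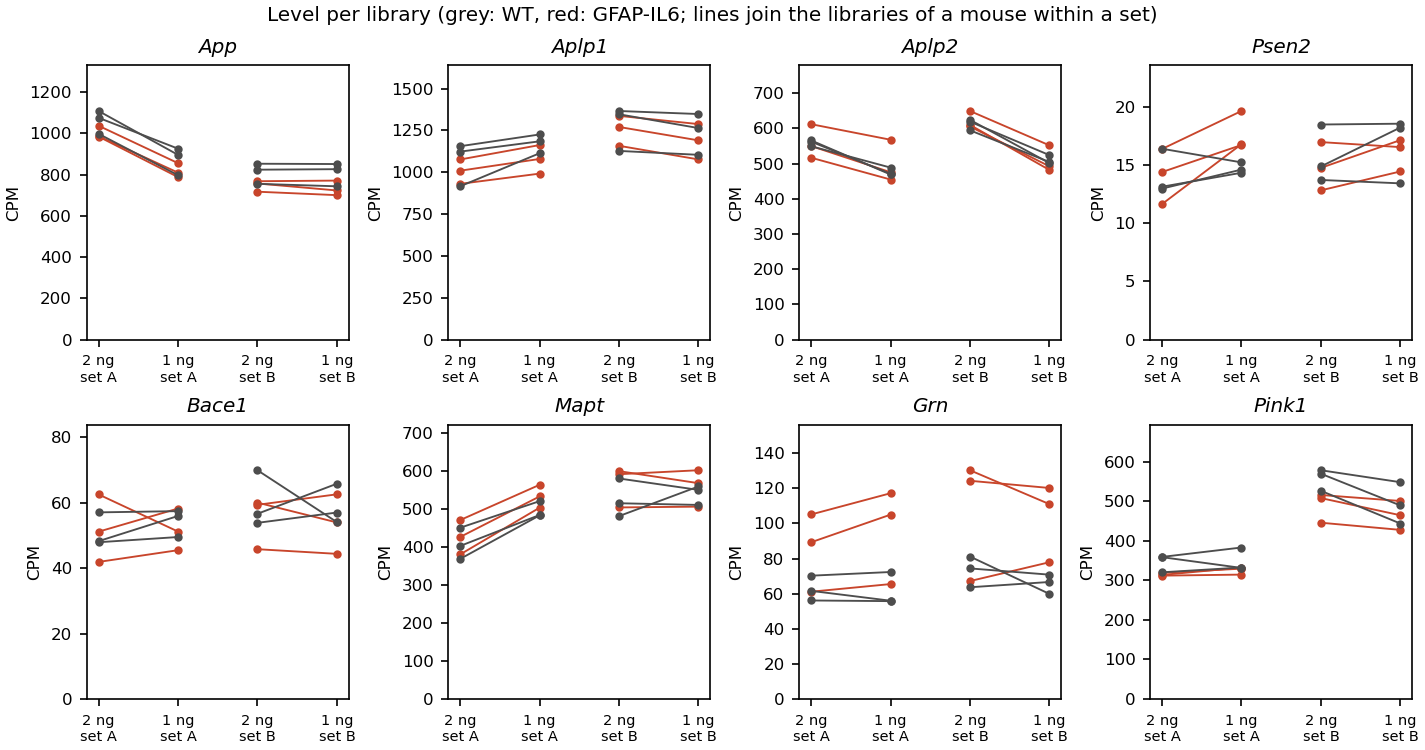
CPM of each gene in each of the 24 libraries, with lines joining the 2 ng and 1 ng libraries of a mouse within a set (WT grey, GFAP-IL6 red). Pink1 libraries of set B, at 427.6 CPM or more, lie above all those of set A, and App is highest in the 2 ng libraries of set A.

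The spread over mice and over libraries had a different size in each gene. For Grn the SD of log2 CPM between mice of a genotype was 0.30, against 0.12 between libraries of a mouse once set and amount means were taken out. For App the corresponding SDs were 0.08 and 0.03, and for Pink1 0.09 and 0.07. Counting error alone would give 0.03 for App, 0.04 for Pink1, 0.09 for Grn and 0.20 for Psen2. The residual SD of Psen2 was 0.21, little more than counting error at this depth. The SDs between mice are from summed libraries and pool both genotypes. For Grn the genotypes were unlike, with an SD of 5.465 CPM in WT and 25.55 CPM in GFAP-IL6. Over all 24 libraries Grn covered a 2.34-fold range, Pink1 1.85-fold and the other 6 genes 1.43- to 1.69-fold.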

How the data were processed

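Frontal cortex RNA of 3 WT and 3 GFAP-IL6 mice was profiled by 3'Pool-seq in 24 libraries. The authors trimmed poly(A) stretches, aligned reads with STAR 2.4 to mm10 and deposited raw counts per gene from featureCounts on a GENCODE annotation. The submitters' processing notes list hg19, while the table holds mouse genes. Fragments come from 3' ends, so counts were not divided by gene length. Groups were taken from the labels.

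The 4 libraries of each mouse were summed, since the mouse is the replicate, and whether the mice are otherwise independent is not stated. edgeR 4.0.16 in R 4.3.3 was used (TMM, filterByExpr, quasi-likelihood test, Benjamini-Hochberg adjustment over all genes tested). Cutoffs, SE and 95% intervals come from these fits. Genotypes were compared in the summed libraries and in each set, and cDNA amount and set with the mouse as a block. Reads have no molecular identifiers, so the precision from depth (1524165 to 12256374 counts) covers counting error only. The 36 pairs of libraries of 1 mouse differed by more than sampling noise (chi-square per degree of freedom 2.35 to 15.5). Alternatives were DESeq2 1.42.0, its size factors, other filters, limma 3.58.1 (voom), thinning, and leaving out each mouse. The tests were tried on simulated counts with 200 genes changed by an absolute log2 fold of 1. The changed genes were drawn only from those above a minimum mean count, so recovery at low counts was not examined. The genotype test recovered 92.5% of them, and 6.09% of its calls were false. For the cDNA amount these were 100% and 4.76%. Smaller changes, such as those of the 8 genes between genotypes, were not simulated. The 8 genes and all lists were chosen with earlier results of these data known. By rule, all 8 genes, Il6, Gfap, called genes of the pathway lists, the 3 genes most like each member and genes overlapping their 3' ends are named, and marker genes outside it are named beside their counts. Ncstn and Adam10 are named only to say what a list holds. The genes most like Aplp1 are not reported here, and for Aplp2, Psen2 and Bace1 the nearest gene alone is given. Positions are from GENCODE vM21 on mm10, which holds 98.77% of the table's genes, and 1 listed gene was not found in the table by symbol.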

Additional observations from a re-analysis of the deposited data

Results flagged for a closer look

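In 4 of the 8 genes the difference between 2 ng and 1 ng of cDNA was not the same in the 2 library sets, by the test of that difference over 6 mice (edgeR). DESeq2 called 5 of the 8, these and Aplp2. The 2 ng to 1 ng difference in set B minus that in set A was -0.27 on the log2 scale for App (SE 0.0294, adjusted p = 2.33e-14), 0.29 for Mapt (SE 0.0375, adjusted p = 6.34e-11), 0.18 for Aplp1 (SE 0.0279, adjusted p = 4.27e-08) and 0.15 for Pink1 (SE 0.0412, adjusted p = 0.00449). For the other members it was 0.18 in Grn (adjusted p = 0.167), 0.08 in Aplp2 (adjusted p = 0.145), 0.08 in Psen2 and 0.07 in Bace1. Whether a pool of libraries accounts for these differences was not tested, and the labels do not say which libraries shared a pool. If those of an amount and set did, the pool cannot be told apart from them. These p-values would then describe how alike the 6 mice were within a few reactions.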

How the results depend on the processing

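Between genotypes, Grn had a positive log2 fold change (0.45 to 0.78) in all 14 settings, with adjusted p from 3.09e-07 to 0.392, and was called in 6. It made 1 member called, in place of 0, under DESeq2's Wald test (adjusted p = 0.00900), with no filter on low counts (3.09e-07), with every mouse thinned to the smallest total (0.0386), with limma-voom over 24 libraries (1.14e-05, consensus correlation of the libraries of a mouse 0.238) and, among fits without 1 mouse (0 to 1 member called), without HOM1. The limma-voom fit used 1 correlation for all genes. For Grn the SD of log2 CPM was 0.30 between mice of a genotype. Between libraries of a mouse it was 0.12 once set and amount means were taken out. The libraries of a mouse were thus more alike for Grn than 0.238 allows, and its limma-voom p is likely too small. At an adjusted p under 0.1, 1 member was called. The replicate block gave 1 member (adjusted p = 0.0297). Same-numbered mice did not deviate together (correlations -0.068 to -0.037, others -0.049 to 0.0997). So few pairs cannot tell whether the numbers pair mice. The cause of these changes was not tested. Genes called numbered 263, 462 with no filter, 453 with limma-voom and 146 to 321 without 1 mouse. In the sets they numbered 125 (2 ng A), 132 (2 ng B), 136 (1 ng A) and 140 (1 ng B), against 199, 200, 214 and 228 with no filter and 79, 72, 93 and 108 with at least 10 counts in every library, and fell to 57, 59, 62 and 54 at the lowest without 1 mouse. In each library set, fits without 1 mouse called 0 to 1 member. With no filter on low counts, Grn made 1 member called in 2 ng set A and in 2 ng set B. The mouse block mattered for the technical comparisons. With no replicate block, 2 members were called between cDNA amounts in place of 4, and 3 between sets in place of 6. Genes called between amounts then fell from 4462 to 1714, and between sets from 3169 to 1015. Uncalled values near 0 changed sign. Over fits without 1 mouse, the genotype difference ran from -0.0107 to 0.0838 in Psen2, from -0.0539 to 0.0593 in Aplp2 and from -0.169 to 0.0277 in Bace1, that between amounts from -0.00028 to 0.0322 in Pink1, and that between sets from -0.0202 to 0.131 in Psen2. With limma-voom the genotype difference was -0.0041 in Aplp2. The low counts of Psen2 limit what can be told for it. Filters and size factors changed no other call of a member named here.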
